A study of Homo sapiens with 6 samples.

Results

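The stretch of gene body described here is the set of positions from 10 kb up to, but not including, 25 kb in profiles of nascent transcription averaged over genes. It was chosen by position alone and holds 15000 of the 122001 positions of each profile, or 12.3% of them. Each position is 1 base, averaged by the authors over genes that the sources used here do not name. Position 0 is taken to be the start of the genes, which the file headers do not state. In an annotation of the human genome (GENCODE release 44 mapped to GRCh37), 10532 of 20176 protein-coding genes are at least 25 kb long and so span the whole window. In those genes 96.0% of the window is intronic and 3.96% lies in exons of protein-coding transcripts. In the 2967 genes of at least 120 kb, which span the whole profile, the intronic share is 99.0%. Another protein-coding gene starts on the same strand inside the window in 1.81% of the genes of at least 25 kb and in 1.15% of those of at least 120 kb. These shares describe the annotation, since the authors' gene set is not known, and for the same reason no gene or sequence can be tied to a position.

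RNA polymerase II initiates and pauses near gene starts, and the kinase P-TEFb releases it into productive elongation. DRB inhibits that kinase, so polymerases already in the gene body run off while new ones are held back, and removal of DRB lets a wave of polymerases enter genes together. UVC makes cyclobutane pyrimidine dimers and related photoproducts in DNA. A dimer on the template strand can block an elongating polymerase, and such blocks are the trigger of transcription-coupled repair. The window from 10 to 25 kb lies beyond the pause site and is reached by the wave some time after release. The wave's part of its signal depends on polymerases that have already crossed the first 10 kb.

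All 6 libraries came from MRC5VA, an immortalised line of human lung fibroblasts, and all cells were held in DRB (100 µM, 3.5 h). Untreated cells were washed free of DRB and sampled 10, 25 or 40 min later. UVC-treated cells received 15 J/m2 while still in DRB and were then washed and sampled at the same times. Nuclei were used for GRO-seq. Polymerases engaged on DNA elongate their RNA for 5 min with BrUTP, and the labelled RNA is then purified and read as 51 bp single ends. Each combination of treatment and time is 1 library of 1 cell line, so the variation between cultures is not known and no test or p-value is given. Whether the libraries were prepared together is not stated, and marker genes of the cell line cannot be checked in profiles averaged over genes.

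The values are in the authors' own units of average signal. In each library 100% of them were whole multiples of 1 step to within 0.05 step. The base-to-base changes were most negatively correlated at a lag of 250 bp in 6 of 6 libraries (r from -0.28 to -0.39, against no lower than -0.11 at other lags up to 1200 bp). Such a pattern arises where each counted event is drawn as a box of 250 bp, which is longer than the 51 bp read. If 1 step is 1 such fragment, the untreated window held 916140 fragments at 10 min, 3555427 at 25 min and 5317369 at 40 min. For UVC-treated cells the numbers were 961070, 1586563 and 1941596. Counting alone would then give an error of at most 0.104% for the mean of the window and at most 0.447% for a bin of 1 kb. This error covers neither variation between cultures nor between genes, and the number of sequenced reads is unknown.

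In untreated cells the window filled between 10 and 25 min and held its mean level afterwards. Its mean signal was 0.923 in the 10 min library and 3.31 in both the 25 min and the 40 min library (n = 1 each). The 25 min mean was 3.59 times the 10 min mean, or 7.39 times with each profile divided by its own signal from 0 to 2 kb. The 40 min mean exceeded the 25 min mean by 0.00415%, which is less than the counting error of either library (0.0530% and 0.0434%). That equality rests on the authors' scaling: with each profile divided by its own mean the 40 min mean was 0.846 times the 25 min mean, and with each divided by its signal from 0 to 2 kb it was 1.14 times. In UVC-treated cells the window filled later and much less. Mean signals of 0.788, 1.33 and 1.56 were found at the successive times, so that the 25 min mean was 1.69 times the 10 min mean and the 40 min mean was 1.17 times the 25 min mean. Divided by the signal from 0 to 2 kb, the first of these was 2.79 times. The 40 min UVC mean was still below the untreated mean of 25 min. In an average over genes and cells, fewer genes or cells with polymerase at a position and fewer polymerases on each gene cannot be told apart.

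**Figure D1:**
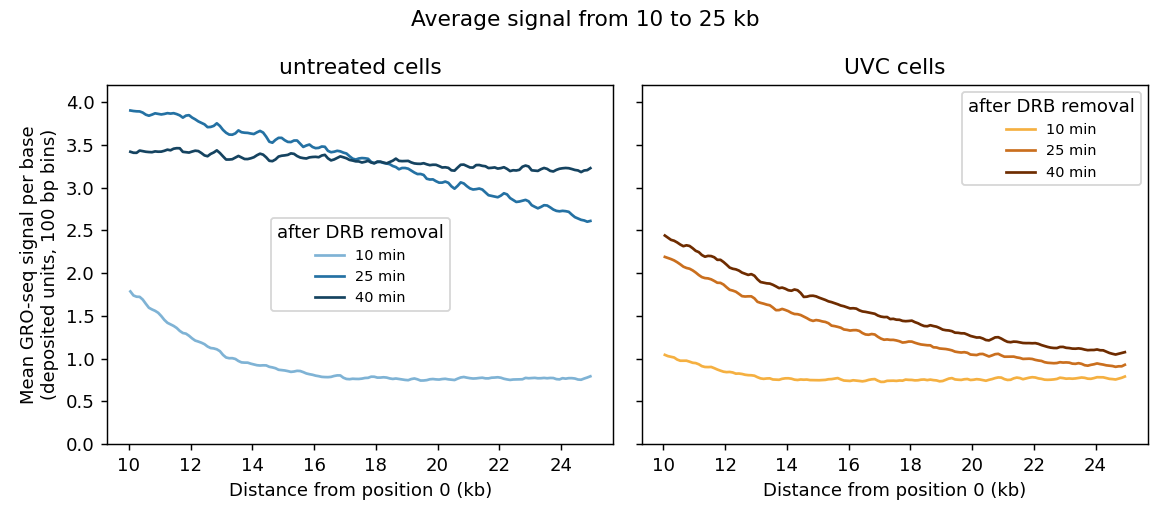
Mean GRO-seq signal per base (deposited units, 100 bp bins) against distance from position 0 in untreated (left) and UVC-treated cells (right), 1 line per library. The untreated 25 min line starts above the 40 min line and crosses under it at 18.1 kb, and both UVC lines of 25 and 40 min slope down across the whole window.

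The window's share of all signal in the profile shows the same passage. The untreated share was 7.76%, 22.1% and 18.7% at the successive times, and the UVC share was 6.93%, 11.5% and 13.4%. Only the 10 min libraries and the UVC 25 min library lay below the 12.3% that an even spread over positions would give. Against the 2 to 10 kb that precede it, the window stood at 22.4%, 80.8% and 94.4% of the mean level in untreated cells. In UVC-treated cells it stood at 27.1%, 39.2% and 44.1%. By 40 min the untreated profile was thus nearly level from 2 to 25 kb and the UVC profile was not.

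Divided into 5 kb parts, the untreated window passed through its highest level at different times. From 10 to 15 kb the untreated signal was 1.22, then 3.74, then 3.39, with the highest value at 25 min. From 15 to 20 kb it was 0.786, 3.34 and 3.32, nearly equal at the later times. From 20 to 25 kb it was 0.769, 2.86 and 3.22, with the highest value at 40 min. These directions rest on the deposited scaling. The ratio of 40 to 25 min was 0.906 in the nearest and 1.13 in the farthest part as deposited, 0.767 and 0.955 with each profile divided by its own mean, and 1.03 and 1.29 with division by the signal from 0 to 2 kb. Under each of these scalings it was higher in the farther part.

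The UVC-treated window gained signal at each later time in every 5 kb part, in smaller amounts farther out. The UVC signal was 0.847, 1.78 and 2.04 from 10 to 15 kb. It was 0.750, 1.23 and 1.47 from 15 to 20 kb. From 20 to 25 kb it was 0.768, 0.976 and 1.15, so that at 40 min the farthest part stood at 1.15 against 3.22 in untreated cells.

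**Figure D2:**
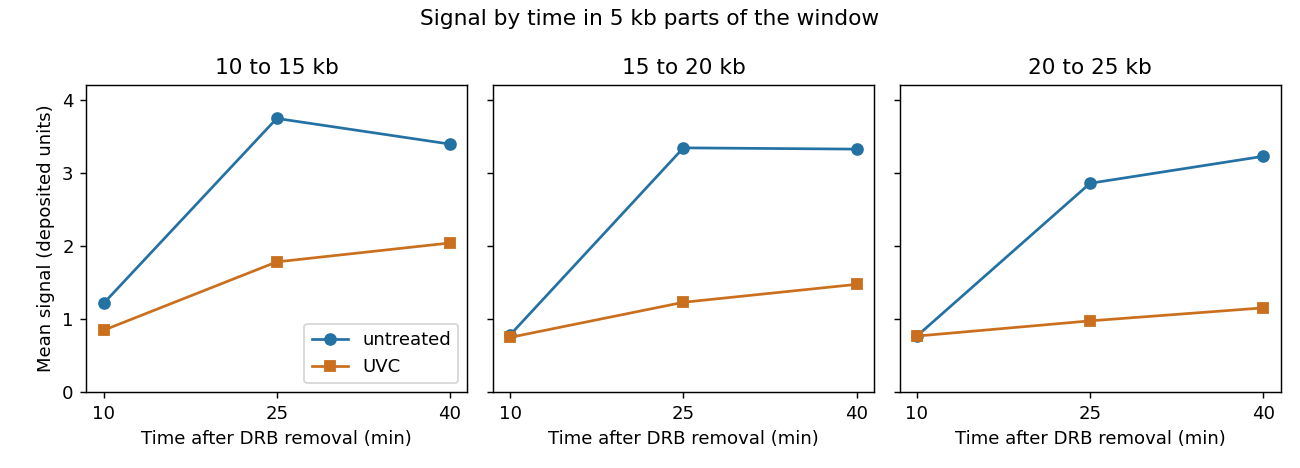
Mean signal (deposited units) against time after DRB removal in the parts from 10 to 15, 15 to 20 and 20 to 25 kb, 1 point per library. Untreated cells (circles) reached 3.74, 3.34 and 2.86 at 25 min and UVC-treated cells (squares) 1.78, 1.23 and 0.976.

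How signal arrived was followed in the 15 bins of 1 kb. A bin is said to have gained signal when a later library was at least 1.5 times an earlier one, a fold chosen as a description since there are no replicates. From 10 to 25 min 15 of 15 bins gained signal in untreated cells, against 24.6% of the 122 bins of the whole profile. In UVC-treated cells 9 of 15 bins did so, those from 10 to 19 kb, against 9.84% of all bins. With division by the signal from 0 to 2 kb it was 15 of 15 bins, against 95.9% of all bins, and the untreated count was 15 of 15 against 95.1%. From 25 to 40 min 0 of 15 bins gained that much in untreated cells (23.8% of all bins, which lay beyond the window) and 0 of 15 in UVC-treated cells (0% of all bins).

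The untreated ratio of 25 to 10 min was 2.34 in the first bin (10 to 11 kb), highest at 4.34 from 16 to 17 kb, and 3.45 in the last bin (24 to 25 kb). In the first bin the 10 min level was already 1.66, against 0.756 to 0.774 in the bins past 17 kb. In UVC-treated cells the same ratio was 2.12 in the first bin, highest at 2.15 from 11 to 12 kb, and 1.19 in the last bin. As deposited, the ratios of the treatments were thus close in the first bin and 3.45 against 1.19 in the last. Ratios between times change with the scaling of each library, and those of the first bin were not computed under the other scalings. Over the window the untreated and UVC ratios were 3.59 and 1.69 as deposited, and 2.85 and 1.66 with each profile divided by its own mean. They were 7.39 and 2.79 with division by the signal from 0 to 2 kb.

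Between 25 and 40 min the untreated window tilted. The ratio of 40 to 25 min was 0.883 in the first bin and 1.21 in the last, and it was higher in each bin than in the one before it (14 of 14 steps). The smoothed profiles (running mean of 1 kb) crossed at a single point, 18.1 kb. Division by the profile mean moved this point to 24.1 kb, and division by the signal from 0 to 2 kb left no crossing, the first bin then being 1.006 and the last 1.38 times the 25 min value. The upward tilt itself does not depend on the scaling. The equal window means at 25 and 40 min therefore arose from a difference (40 minus 25 min) of -0.455 in the first bin and of 0.552 in the last. In UVC-treated cells the 40 min signal was above the 25 min signal at 100% of the positions of the window. Their ratio was 1.12 in the first bin, highest at 1.21 from 17 to 18 kb and 1.17 in the last bin, a narrower range than in untreated cells. As deposited, a higher UVC mean at 40 min was not particular to the window. The ratio was 1.04 in the stretch before it (2 to 10 kb) and 1.01 after it (25 to 50 kb). The UVC mean was lower at 40 min near position 0 (0 to 2 kb, 4.79 against 5.13). It was also lower at the far end (100 to 120 kb, 1.15 against 1.19). How many positions of the whole profile were higher at 40 min was not counted. In units of signal the UVC gain from 25 to 40 min was 0.243 in the first bin, largest at 0.266 from 14 to 15 kb and 0.154 in the last bin.

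**Figure D3:**
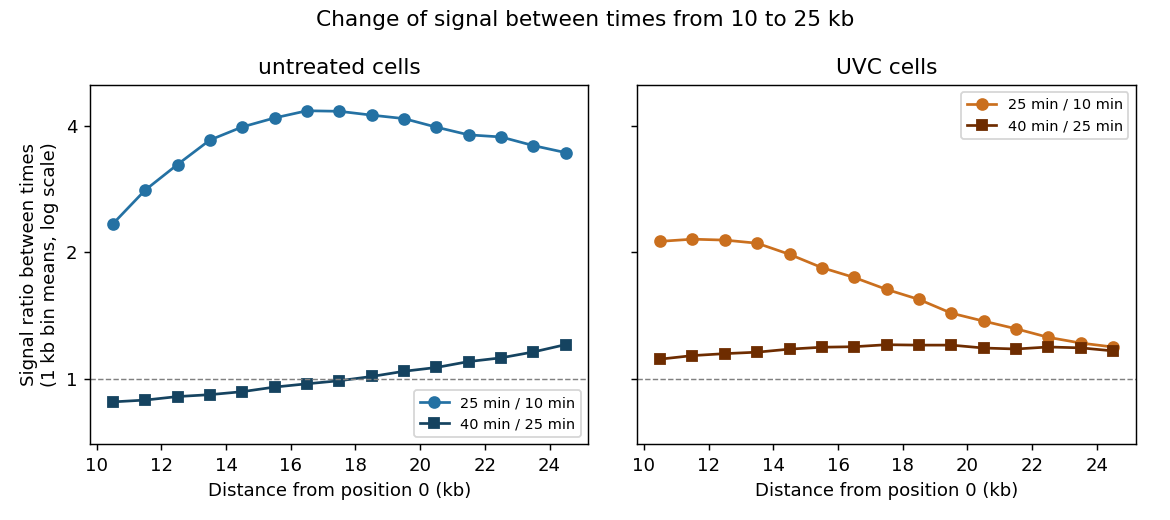
Ratio of signal between successive times (1 kb bin means, log scale) against distance in untreated (left) and UVC-treated cells (right). The 25 to 10 min ratio (circles) is highest at 4.34 in untreated cells and 2.15 in UVC-treated cells, and the 40 to 25 min ratio (squares), as deposited, passes 1 only in untreated cells.

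The order of arrival with distance can be read from the share of the 40 min gain that was present at 25 min, each gain being the difference from the 10 min library of the same treatment. Over the window this share was 100.0% in untreated cells and 70.4% in UVC-treated cells. In untreated cells it declined from 126% in the first bin to 77.4% in the last, where values over 100% mean that the deposited signal was higher at 25 than at 40 min. With division by the signal from 0 to 2 kb the untreated first bin had 99.2%, so this excess depends on the scaling. In UVC-treated cells it declined from 82.1% in the first bin to 49.1% in the last. The last bin's UVC gain was 0.148 up to 25 min and 0.154 after it. Under the other scalings the UVC share of the last bin at 25 min lay between 36.9% and 66.5%, and the untreated one between 69.5% and 96.7%. With division by the signal from 0 to 2 kb the last bins were close, at 69.5% in untreated and 66.5% in UVC-treated cells. Over the window the untreated share then lay between 86.0% and 131%, and the UVC share between 64.6% and 71.8%.

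Positions at fixed signal levels describe how far out a given signal was found, and they move with the height and the scaling of a profile as well as with its extent. The UVC profile went under a level of 2 at 11.1 kb in the 25 min and 12.6 kb in the 40 min library, a shift of 1.55 kb. It went under 1.5 at 14.5 kb and at 17.0 kb, a shift of 2.59 kb. With each profile divided by its signal from 0 to 2 kb, and the level scaled with the 25 min library, the latter shift was 3.95 kb, so no rate is given. The UVC signal of 40 min was also 1.12 to 1.21 times that of 25 min in every bin, and a higher profile and a more advanced one cannot be told apart from these positions. The UVC profile fell to a level of 1 by 10.5 kb in the 10 min library and by 21.8 kb in the 25 min library. This level was not reached inside the window at 40 min. The untreated 10 min profile went under 1.5 at 11.0 kb and under 1 at 13.4 kb. No untreated profile of 25 or 40 min went as low as 2 anywhere in the window, its lowest bases being 2.59 and 3.18.

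Set beside the untreated 10 min library, the UVC 25 min profile lay higher at 100% of the positions of the window, and in 15 of 15 bins under each scaling tried. Its excess was 0.456 in the first bin, 0.626 from 13 to 14 kb and 0.152 in the last bin. As deposited, the level of 1.5 lay 3.44 kb farther out and the level of 1 lay 8.37 kb farther out than in untreated cells at 10 min. The distance between these profiles was therefore larger at the lower level. A higher UVC 25 min mean was not particular to the window. As deposited it was also higher from 25 to 50 kb (1.06 against 1.01) and from 100 to 120 kb (1.19 against 1.13). It was lower from 0 to 2 kb (5.13 against 7.62) and from 2 to 10 kb (3.39 against 4.12). The share over all positions of the profile was not counted.

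The gradient of signal with distance was measured as the least-squares slope of the log2 bin mean over the 15 bins. The untreated slope was -0.65 per 10 kb at 10 min, then -0.39 and -0.073 at the later times, so the window became flatter with time. The last bin held 46.5%, 68.7% and 94.0% of the signal of the first at these times. The UVC slope was -0.15 per 10 kb at 10 min, then -0.86 and -0.82. The last bin held 77.8%, 43.6% and 45.7% of the signal of the first. The UVC slope was thus shallow at 10 min, steep at 25 min and nearly the same at 40 min. The 10 min slopes rest on the first bins: a median of all pairwise slopes (Theil-Sen) gave -0.49 in untreated and -0.028 in UVC-treated cells.

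The slopes differed in shape as well. At 10 min the decline lay in the first 5 kb, with slopes of -2.22, -0.36 and 0.011 per 10 kb from 10 to 15, 15 to 20 and 20 to 25 kb in untreated cells. In UVC-treated cells they were -1.02, 0.011 and 0.053. At 10 min the untreated smoothed signal had its minimum of 0.754 at 19.3 kb, the UVC one its minimum of 0.741 at 17.4 kb, and beyond these points both were nearly flat. The untreated decline at 25 min steepened outwards, with slopes of -0.30, -0.40 and -0.48 in the same parts. The UVC decline did the reverse, with slopes of -1.26, -0.88 and -0.47 at 25 min and -1.07, -0.84 and -0.51 at 40 min. The flat signal already present at 10 min (lowest bin 0.756 in untreated and 0.742 in UVC-treated cells) was not subtracted for these slopes. The last UVC bin was close to it, at 0.922 at 25 min, and how far this sets the difference in shape was not tested. In signal units the untreated slope was -0.089 per kb at 25 min and -0.017 per kb at 40 min. The UVC slope was -0.081 and -0.089 per kb at these times. As deposited, the slopes in signal units were thus close at 25 min, where the log2 slopes were not, and far apart at 40 min. Slopes in signal units change with the scaling of each library, and they were not computed under the other scalings.

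At each time the UVC signal was next divided by the untreated signal. At 10 min the ratio of the window means was 0.854, and it was 0.401 and 0.470 at the later times. These values depend on the authors' scaling of each library, which is not stated. The log2 ratio at 40 min was -1.09 as deposited, -0.48 with each profile divided by its own mean and -1.65 with each divided by its signal from 0 to 2 kb. With the mean from 100 to 120 kb subtracted the log2 ratio was -3.85 at 25 min and -2.29 at 40 min. Without subtraction it was -1.32 and -1.09. For UVC at 25 min this took 1.19 from a window mean of 1.33, so the value of -3.85 rests on a small remainder. A bin counted as depleted when the UVC signal was below the untreated signal by at least 1.5-fold. At 10 min 2 of 15 bins were depleted, those from 10 to 12 kb, against 5.74% of all 122 bins. At 25 min 15 of 15 were, against 23.8% of all bins, and at 40 min 14 of 15, all but the first, against 41.8% of all bins. With each profile divided by its own mean the 40 min count was 7 of 15, and the 10 min count was 1. The share over all 122 bins was not counted under that scaling, so these 2 counts cannot be set against the whole profile.

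The 10 min ratio increased with distance, from 0.600 in the first bin to 0.974 from 18 to 19 kb. It lay between 0.992 and 1.005 in the 6 bins from 19 kb on. The smoothed profiles of the treatments crossed 7 times, the last time at 23.5 kb. The UVC deficit at 10 min thus lay in the bins where the untreated signal stood above its flat level, and beyond 19 kb the libraries were within 1% of each other as deposited. For this reason the median over the window gave a log2 ratio of -0.037 where the mean gave -0.23.

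**Figure D4:**
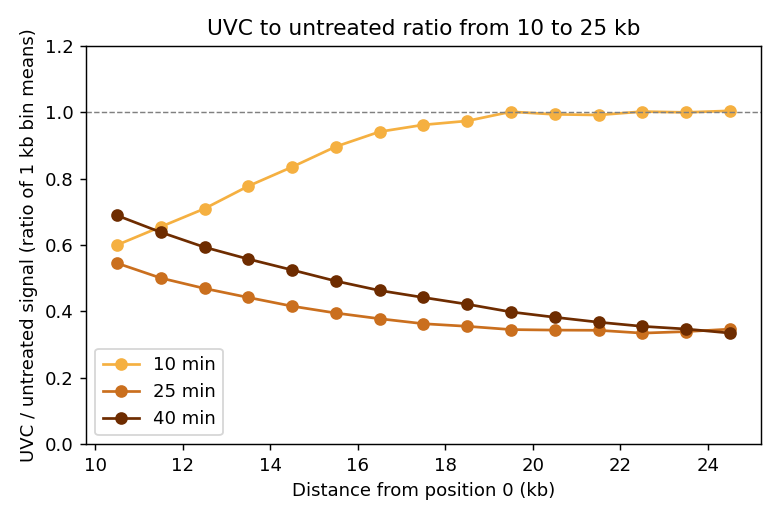
Ratio of UVC to untreated signal (1 kb bin means) against distance at 10, 25 and 40 min, with a dashed line at equality. The 10 min ratio climbs from 0.600 to 1.005, while the 25 and 40 min ratios decline from 0.546 and 0.689 to 0.347 and 0.335.

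At 25 min the ratio declined from 0.546 in the first bin to 0.345 from 19 to 20 kb and stayed between 0.335 and 0.347 to the end of the window. At 40 min it declined in each of 14 steps, from 0.689 in the first bin to 0.335 in the last. With each profile divided by its own mean the first bin's ratio was 1.05, so the lower UVC signal there depends on the scaling. In the other 14 bins the ratio stayed below 1 under each scaling tried. From 25 to 40 min the ratio was higher by 0.144 in the first bin but differed by -0.012 in the last, where the untreated signal had gained as well. The change in the ratio between these times became smaller with distance in each of 14 steps. The gain in the first bin held under the 3 other scalings tried, but the direction in the last bin turned under 2 of them. There the ratio was 0.510 at 40 min and 0.448 at 25 min with each profile divided by its own mean, and 0.392 and 0.379 with division by the mean from 100 to 120 kb.

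The slope of the log2 ratio over the window was 0.50 per 10 kb at 10 min and turned to -0.47 and -0.74 at the later times. By parts of 5 kb it was -0.96, -0.48 and 0.0075 at 25 min and -0.98, -0.74 and -0.47 at 40 min. The neighbouring windows framed these values. From 2 to 10 kb the slope was -0.92, -1.34 and -1.24 in order of time. From 25 to 50 kb it was 0.0096, 0.71 and 0.25. The slope was thus positive in the window only at 10 min, and at 25 and 40 min it lay between a steeper decline before it and an increase after it. These differences between windows were not tested. The flat signal already present at 10 min was not subtracted for the slopes of the ratio. How far it sets the positive slope at 10 min was not tested.

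Both 10 min libraries levelled off near 0.76, so the ratios above include signal that was present ahead of the wave. The gain since 10 min was therefore compared as well. Over the window the gain at 25 min was 2.39 in untreated and 0.541 in UVC-treated cells, so the UVC gain was 22.6% of the untreated gain. At 40 min the gains were 2.39 and 0.767, or 32.1%. With each profile divided by its own mean these shares were 31.6% and 59.0%. The UVC share at 25 min declined in each of 14 steps, from 50.5% in the first bin over 18.3% from 17 to 18 kb to 7.85% in the last. At 40 min it was 77.3%, 28.4% and 12.4% in the same bins. The share in the first bin at 40 min depends on the scaling: it was 214% with division by the profile mean, 109% by the mean from 100 to 120 kb and 44.8% by the signal from 0 to 2 kb. The 3 scalings gave 21.1%, 14.7% and 15.0% in the last bin, so the last bin's share was the lower one under each. At 25 min the first bin had 79.4%, 59.3% and 35.5% and the last 10.3%, 6.73% and 14.3%.

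On a log2 scale this decline was close to a straight line. Its slope was -1.92 per 10 kb at 25 min and -1.83 at 40 min, which corresponds to a halving every 5.21 kb and every 5.47 kb. No bin lay farther from the line than 0.094 at 25 min and 0.146 at 40 min, in log2 units. By parts of 5 kb the slope was -2.14, -1.92 and -1.75 at 25 min and -2.26, -1.73 and -1.58 at 40 min, so the decline was somewhat steeper near 10 kb. In the first bins the untreated 10 min library already held part of the wave, which lowers the untreated gain there. With only the floor of each 10 min library subtracted (its lowest bin, 0.756 in untreated and 0.742 in UVC-treated cells), the share at 25 min was 44.0% in the first and 9.46% in the last bin. At 40 min it was 60.6% and 13.6%, and the halving distances were 6.11 and 6.44 kb. With each profile divided by its own signal from 0 to 2 kb the slopes of the gain were -0.96 and -1.12 per 10 kb, so the halving distance depends on the scaling.

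**Figure D5:**
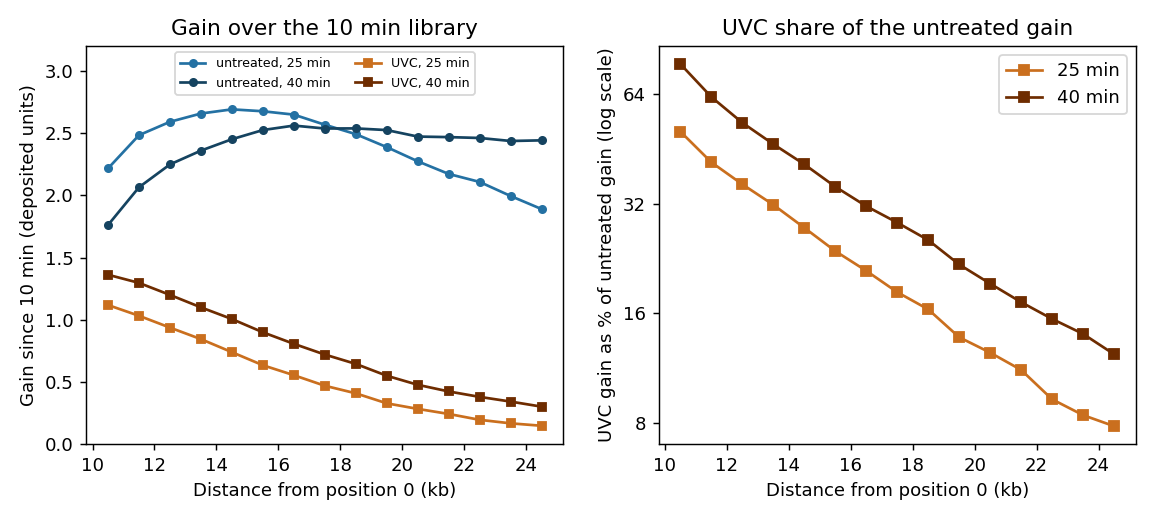
Left, gain in signal since 10 min (deposited units) against distance at 25 and 40 min in untreated (circles) and UVC-treated cells (squares). Right, the UVC gain as a percentage of the untreated gain on a log scale, which declines from 50.5% to 7.85% at 25 min and from 77.3% to 12.4% at 40 min.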

How the data were processed

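The deposited files hold, per the file headers, 1 signal value per base from -2 to 120 kb for each of 6 libraries. The signal is an average over genes made by the authors. BWA 0.5.9 and hg19 (GRCh37) appear in the submitters' processing notes, and the gene set, read extension and scaling are not given in the sources used here. The scaling sets all ratios between libraries, positions at fixed signal levels, crossings and slopes in signal units. It does not change log2 slopes within a library or of a ratio between libraries.

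Window and 1 kb bin means, ratios without pseudocount, least-squares slopes and a 1 kb running mean were made in numpy 2.4.6 and pandas 2.3.3 under Python 3.11.15. The functions were tested on simulated profiles. With 1 library per group no test was made. Positions named are the first and last bins, those with the highest and lowest ratio, and the 3 bins of 100 bp with the largest excess over a 2 kb running mean. A few other bins were named after their values were seen. The members and measures were chosen with earlier results of these data known. Alternatives changed scaling, summary, edges, bins, fit and background.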

Additional observations from a re-analysis of the deposited data

Results flagged for a closer look

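The slope of the log2 ratio of UVC to untreated signal from 10 to 25 kb pointed in opposite directions at different times. The slope was 0.50 per 10 kb in the 10 min pair of libraries, -0.47 in the 25 min pair and -0.74 in the 40 min pair. The difference between times was not tested, since each value rests on 1 library per treatment. A single factor per library cannot change these slopes. Their sign was the same with bins of 500 bp and 3 kb, bin medians, the inner 12 to 23 kb and a Theil-Sen fit. None of these settings subtracted the flat signal of the 10 min libraries, which lay at nearly the same level in both treatments. The 10 min ratio came close to equality where both libraries lay at this level. How far the flat signal sets the direction at 10 min was not tested.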

How the results depend on the processing

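Neither a replicate spread nor a read count was at hand, so a value counted as moved when it changed by 0.1 or more in log2 units (or log2 units per 10 kb), by 1 kb, or by 1.5-fold for a count. Of 182 alternative values for 42 results, 78 moved and 5 changed sign from a value beyond that tolerance. The UVC to untreated log2 ratio stayed below 0 in all of its alternatives, and the sign of each slope was unchanged. For the slopes of this ratio no alternative subtracted the flat signal of the 10 min libraries. The settings for the gain since 10 min, for crossings, for fixed levels, for bins that gained signal, for single bins and for 5 kb parts were chosen after seeing the data. The causes of the changes were not tested. No paired analysis was possible because each group has 1 library. Subtraction of the mean from 100 to 120 kb gave no value where a 10 min library was involved, since its window lay below that mean, and division by the 0 to 2 kb signal gave no crossing.

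Values follow in order of time. Divided by the profile mean, the UVC to untreated log2 ratio was -0.95 and -0.48 at 25 and 40 min, the untreated log2 change was 1.51 (25 over 10 min), -0.24 (40 over 25 min) and 1.27 (40 over 10 min), the gain ratio -1.66 and -0.76 with slopes of -2.06 and -2.15, the crossing 24.1 kb, and the depleted bins 1 at 10 min and 7 at 40 min. The untreated log2 change from 25 to 40 min turned from 0.18 to -0.066 at 20 to 25 kb, and in the first bin at 40 min the log2 ratio turned from -0.54 to 0.070 and the log2 gain ratio from -0.37 to 1.10. Divided by the 100 to 120 kb mean, the ratio was -1.19 and -0.86, the untreated change 1.64 (25 over 10 min) and 1.59 (40 over 10 min), the gain ratio -2.04 and -1.33 with slopes of -2.21 and -1.96, and the crossing 19.4 kb. The log2 gain ratio of the first bin at 40 min turned to 0.13. Divided by the 0 to 2 kb mean, the ratio was -0.38, -1.79 and -1.65, the untreated change 2.89, 0.19 and 3.07, the UVC change 1.48 (25 over 10 min) and 1.80 (40 over 10 min), the gain ratio -1.96 at 40 min, its slopes -0.96 and -1.12, and the UVC shift at a level of 1.5 was 3.95 kb. The UVC bins that gained signal from 10 to 25 min were 15, and the untreated log2 change from 25 to 40 min at 10 to 15 kb turned from -0.14 to 0.047.

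With the 100 to 120 kb mean subtracted the ratio was -3.85 and -2.29, and the UVC log2 change from 25 to 40 min was 1.53. For UVC at 25 min this took 1.19 from a window mean of 1.33. With the 10 min profile subtracted the ratio was -2.14 and -1.64. With the lowest 10 min bin subtracted the slopes of the gain ratio were -1.64 and -1.55. The window median gave ratios of -0.037 and -1.46 at 10 and 25 min and untreated changes of 2.09 and 2.08. The inner 12 to 23 kb gave untreated changes of 1.98 and 1.97, 10 min slopes of -0.50 (untreated) and -0.043 (UVC) and a gain ratio of -2.27 at 25 min. The Theil-Sen slopes at 10 min were -0.49 and -0.028. At 2-fold, 0 bins were depleted at 10 min. For depleted bins the share over all bins of the profile was not counted at any alternative setting.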

Other observations

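Fine structure along the window was small and partly shared between libraries. After division by a running mean of 2 kb, the 150 bins of 100 bp had a standard deviation of 1.27%, 0.679% and 0.601% in the untreated libraries of 10, 25 and 40 min, and of 1.21%, 0.843% and 0.796% in UVC-treated cells. If 1 step is 1 fragment, counting alone would give 0.809%, 0.411% and 0.336%, and 0.790%, 0.615% and 0.556%. The observed spread was larger in 6 of 6 libraries.

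Across these 150 bins the libraries were positively correlated in 15 of 15 pairs, as a description over neighbouring bins that share fragments and averaged genes. Pearson's r was 0.70 between the 10 min libraries of both treatments, 0.65 between untreated 25 and 40 min, and 0.65 between UVC-treated 25 and 40 min. It was lowest, at 0.14, between untreated 10 and 25 min. The UVC 40 min library had an r of 0.47 with untreated 10 min and of 0.52 with untreated 40 min.

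The largest shared excess lay from 20800 to 20899 bp. Above the running mean it was 2.33%, 1.38% and 0.804% in the untreated libraries, in order of time, and 2.42%, 2.36% and 2.38% in UVC-treated cells. The bin before it had an excess of 0.697% to 1.76%. The bin from 16800 to 16899 bp had 2.63% and 2.44% at 10 min in untreated and UVC-treated cells, and 0.325% to 1.25% at later times.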
